A study of Drosophila melanogaster with 2 samples.

Results

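A set of 8 genes of the BMP pathway of Drosophila melanogaster, shn left aside, was examined for Bab2 binding: the ligand genes dpp and gbb, the receptor genes tkv, sax and put, the Smad genes Mad and Med, and the repressor gene brk. They are 8 of 13945 protein-coding genes on the arms used. They were chosen by name, not by signal, though with earlier results of these data known. For each gene the window was its annotated span plus 10 kb on each side, and a peak was counted when its summit fell in that window. The data were ChIP-seq peak lists on the dm6 build from whole embryos aged 0 to 24 h, males and females pooled, of a stable transgenic line in which Bab2 carries a C-terminal eGFP. The precipitation used an anti-GFP antibody, so the lists describe the tagged protein in a mixture of all embryonic tissues and stages. The 2 libraries, numbered as biological replicates 2 and 3 and made from separate biosamples, form 1 group, and no untagged or untreated group was analysed here. A relaxed list holds peaks together with background. It had 27372 entries for replicate 2, 25804 for replicate 3 and 24109 for the pooled reads. The optimal list, which the authors derived by a procedure for reproducibility between replicates, had 4720. With 1 group, no test between conditions was possible. A peak has a single signal value per list and so no standard deviation, and the read depth is unknown.

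BMP signalling in the fly begins when a ligand dimer brings together type I and type II serine/threonine kinase receptors. The activated type I receptor phosphorylates Mad, which joins Med and enters the nucleus to regulate target genes. In many tissues the outcome depends on repression of brk, whose product holds Dpp target genes silent where signalling is low. The pathway patterns the dorsal embryo, the gut and the imaginal discs, and maintains germline stem cells. Bab2 is a BTB-domain transcription factor best known from leg segmentation, the ovary and abdominal pigmentation, and Bab proteins are known to bind A/T-rich DNA in vitro.

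The sequences of 101 bp centred on the summits are shown for 7 of the 16 optimal peaks, chosen to show sites within 4 of the member genes and upstream of dpp and brk. They were read from the RefSeq copy of the release 6 assembly, which is the dm6 build. Capitals mark matches, on either strand, to any of 10 short motifs that were searched. The Mad window is the strongest inside a member gene, the put window the most A/T-rich of all 16, and the brk window 7326 bp upstream the most G/C-rich.
Mad intron, chr2L:3153366-3153466, plus strand: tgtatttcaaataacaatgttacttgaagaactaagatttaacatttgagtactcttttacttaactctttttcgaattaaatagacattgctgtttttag
dpp upstream, chr2L:2426595-2426695, plus strand: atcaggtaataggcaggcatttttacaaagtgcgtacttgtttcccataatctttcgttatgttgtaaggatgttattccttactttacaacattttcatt
dpp intron, chr2L:2433582-2433682, plus strand: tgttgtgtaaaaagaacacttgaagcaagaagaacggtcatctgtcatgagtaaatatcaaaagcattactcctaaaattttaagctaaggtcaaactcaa
tkv intron, 3′ part, chr2L:5224820-5224920, plus strand: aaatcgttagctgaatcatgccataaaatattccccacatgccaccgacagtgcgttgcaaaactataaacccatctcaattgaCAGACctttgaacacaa
put intron, chr3R:14624179-14624279, plus strand: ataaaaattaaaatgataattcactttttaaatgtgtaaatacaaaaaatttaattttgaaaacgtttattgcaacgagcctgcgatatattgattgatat
brk upstream, 826 bp, chrX:7307063-7307163, plus strand: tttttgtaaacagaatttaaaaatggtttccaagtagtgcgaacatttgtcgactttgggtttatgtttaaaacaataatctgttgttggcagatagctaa
brk upstream, 7326 bp, chrX:7300563-7300663, plus strand: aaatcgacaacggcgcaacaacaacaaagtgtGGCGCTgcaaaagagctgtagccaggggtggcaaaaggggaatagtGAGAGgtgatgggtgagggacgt

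These windows were poor in G and C. Over the 16 optimal summits of the member windows the G+C content ran from 20.8% at put to 53.5% at the brk summit 7326 bp upstream, with a median of 31.7%. The median was 34.7% over all 4720 optimal summits, 33.7% over the 2530 of them more than 500 bp from a protein-coding TSS, and 42.6% over the 19389 pooled peaks that were not in the optimal list. Of the 16 windows, 11 lay below the optimal median and 14 below that of the other pooled peaks. The longest uninterrupted A/T run in a window, a measure added after the sequences had been seen, had a median of 10 bp at the member summits, 9 bp over the optimal list and 8 bp over the other pooled peaks. The 16 summits are themselves entries of the optimal list, so their likeness to it in base composition is no separate finding about these genes.

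Few of the searched motifs occurred. GGCGCT, a form of the site that the Brk protein recognises, was present in 1 of 16 windows, the one 7326 bp upstream of brk, and in 2.97% of all optimal windows. The same window held GAGAG, the core of GAGA factor sites, which occurred in 472 of the 4720 optimal windows. GTCTG, which contains the short box bound by Smad proteins, was found in 1 window, the 3′ intronic site of tkv, against 8.35% of optimal windows. The other 7 motifs were in none of the 16 windows. They were GGCGCC (1.89% of optimal windows), the other Brk form searched, GCCGNCGC (0.36%), a Mad site, TATCGATA (1.99%), the DNA replication-related element, GGTCACACT (0.657%), CAGGTAG (0.445%), recognised by Zelda, the A/T-rich TATTAT (14.8%) and the repeat CACACA (7.37%). The motifs were read on both strands, and GGCGCC and GGCGCT share 5 letters. Only these forms were searched, so other variants of a site, including that of Zelda, may be present in the windows.

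All 8 genes had at least 1 optimal summit in their window, and none had one at its own start site. Across all protein-coding genes, 63.1% had an optimal summit in a window built the same way, and the share rose with window length. In 5 groups of genes of near-equal size, ordered by window length, it was 46.3% in the group with the shortest windows and 73.5% in the group with the longest. The member windows ran from 21.7 kb at gbb to 72.4 kb at tkv, and 7 of 8 fell in the 2 groups with the longest windows, where the shares were 70.3% and 73.5%. Most genes with windows of this length thus had an optimal summit, and nothing particular to the pathway was tested or shown by the count of 8. Within the gene span itself, 4 of 8 members (dpp, tkv, put and Mad) held an optimal summit, against 12.2% of all genes. These 4 are the only members in the group with the longest windows, where 38.0% of all genes held one. The remaining members held none, in groups with shares of 13.2% (sax, Med and brk) and 3.44% (gbb). No member had an optimal summit within 500 bp of any of its TSSs, against 20.1% of all genes.

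The 16 optimal summits were spread unevenly. brk had 5, gbb 3, dpp and tkv 2 each, and sax, put, Mad and Med 1 each. The median was 1.5 per member window and 1 per window over all genes, and the density was 0.578 per 10 kb in member windows against 0.512 over all windows. brk, with 5 summits in 23.2 kb (2.16 per 10 kb), stood highest at this window, and tkv, with 2 in 72.4 kb (0.276 per 10 kb), lowest. The order changed with the settings. With 5 kb on each side, brk, dpp and tkv had 2 each and the other members 1 each, and among the 2360 strongest optimal peaks gbb had 3, brk 1 and tkv 0. Of all genes, 4.13% had 5 or more optimal summits in their window, and the share was 4.12% in the length group that holds brk.

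**Figure D1:**
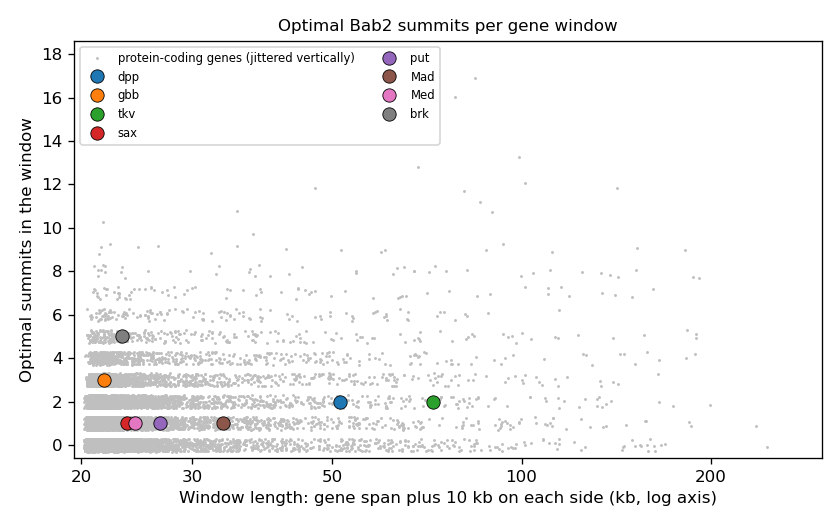
Number of optimal Bab2 summits in each gene window (vertical axis) against the length of the window in kb (horizontal log axis), for all protein-coding genes (grey, jittered) and the 8 BMP pathway genes (coloured). brk has 5 summits in a window of 23.2 kb, while tkv has 2 in 72.4 kb; 9 genes beyond 300 kb or 18 summits are not drawn.

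The 16 summits fell into 2 kinds by position. At gbb, sax and Med, every optimal summit lay within 500 bp of the start of a neighbouring gene, 5 summits in all. At dpp, tkv, put, Mad and brk, all 11 summits lay farther than 500 bp from any protein-coding TSS. Together, 31.2% of the 16 were promoter summits, against 46.4% of all optimal summits. By nearest protein-coding TSS, 7 of the 16 were assigned to a member gene: 3 to brk, 2 to dpp and 1 each to put and Mad. Thus 4 of 8 members had a summit nearest to their own TSS, compared with 22.6% of all genes. That share was not computed for genes with windows of like length. Of these members, dpp, put and Mad are in the group with the longest windows. In the window of brk no other protein-coding gene starts. By annotation, 10 summits were intronic, 4 intergenic and 2 in exons, 1 in a noncoding exon and 1 in a 5′ UTR.

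**Figure D2:**
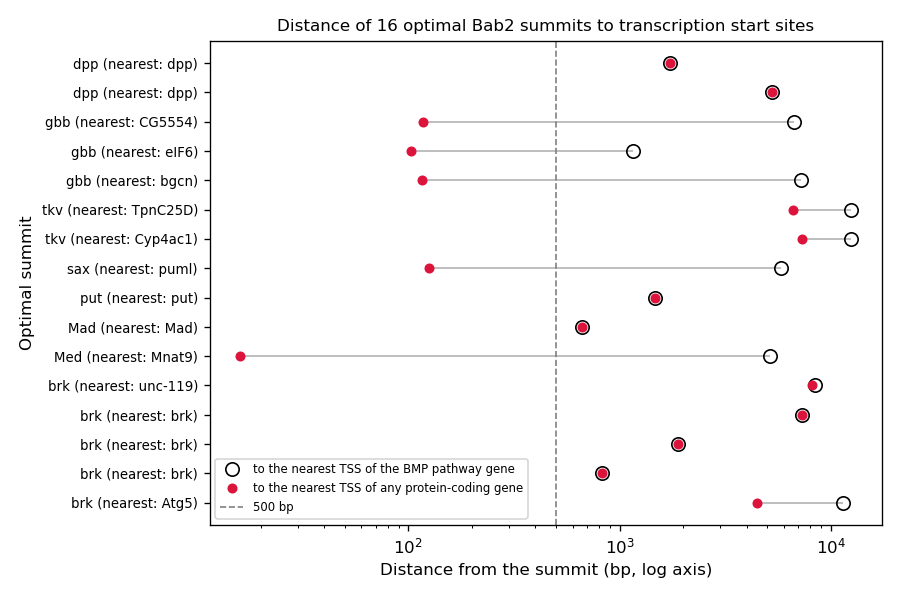
Distance in bp (log axis) from each of the 16 optimal summits to the nearest TSS of the BMP pathway gene (open circles) and of any protein-coding gene (red points), with a dashed line at 500 bp. The 5 summits at gbb, sax and Med have a red point left of the line, from 16 to 126 bp, and an open circle right of it.

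dpp encodes the main BMP ligand of the fly, a homologue of vertebrate BMP2 and BMP4, and is expressed from several start sites. The gene (FBgn0000490) spans 2428372 to 2459823 on 2L, on the plus strand, with 4 annotated TSSs. The stronger optimal peak (2L, 2433420 to 2433843, summit 2433632) lay in an intron, 5260 bp downstream of the first TSS, with a signal of 199.9 (the authors' enrichment value from pooled reads) and rank 1157 of 4720. Its rank was 1359 in replicate 2 and 1007 in replicate 3. The other (2L, 2426433 to 2426856, summit 2426645) was intergenic, 1727 bp upstream of the same TSS, with signal 117.8 and rank 2639. It ranked 2941 in replicate 2 and 2727 in replicate 3, close to its place in the pooled reads, and a noncoding RNA gene, lncRNA:CR44912, starts nearer to it (1236 bp). Both peaks thus flanked the first, distal start of dpp. No optimal summit lay near its other starts, and at one of these a relaxed pooled peak in the 5′ UTR, 222 bp downstream of the TSS, had signal 37.4 and rank 12174. Of the 8 relaxed pooled peaks in the dpp window that were not optimal, 5 had a summit within 200 bp in both replicates. The strongest of the 8 lay at the promoter of CG9886 (124 bp upstream), with signal 71.96 and rank 5076, just past the length of the optimal list.

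gbb encodes the second BMP ligand, of the BMP5, BMP6 and BMP7 group, which acts at the neuromuscular junction and with Dpp in the wing. It is a short gene (FBgn0024234; 2R, 23851562 to 23853247, plus strand) in a dense stretch where 8 other protein-coding genes start within its window. The peak nearest to its TSS (2R, 23850216 to 23850585, summit 23850404) was the strongest of all 16, with signal 1178 and rank 26. It ranked 31 in replicate 2 and 18 in replicate 3. It lay 1158 bp upstream of gbb, but 103 bp upstream of eIF6 (translation initiation factor 6, needed for ribosome assembly), in an exon of the antisense RNA gene asRNA:CR45928 and within ytr. The 2 other optimal peaks had signals of 218.5 and 202.4 and lay 118 bp upstream of CG5554 and in the 5′ UTR of bgcn, 116 bp downstream of its TSS. bgcn is itself tied to BMP biology, as its product works with that of the Dpp-repressed gene bam in germline differentiation. The CG5554 peak (2R, 23844671 to 23845094) ranked 983 in the optimal list, 1029 in replicate 2 and 953 in replicate 3. The bgcn peak (2R, 23858593 to 23859016) ranked 1120, with 943 in replicate 2 and 1314 in replicate 3. At gbb's own start, replicate 2 alone had a relaxed summit (32 bp upstream, signal 27.9, rank 6985).

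The map of summits along the genes shows this contrast between members.

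**Figure D3:**
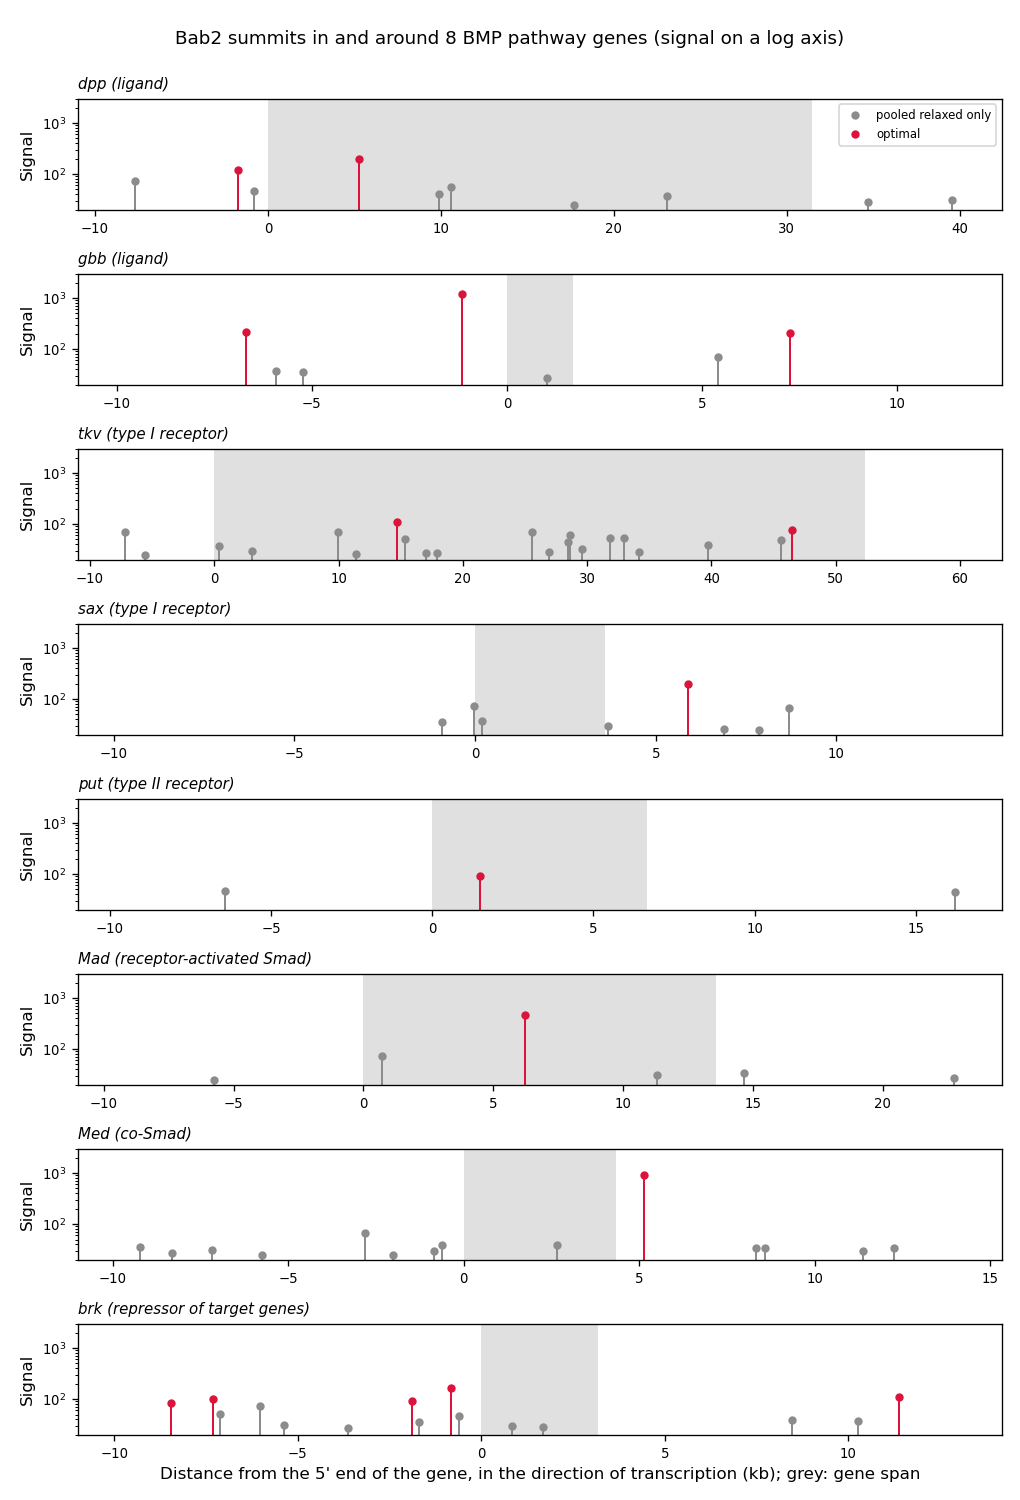
Summits of the pooled list in the window of each BMP pathway gene, by distance from the 5′ end of the gene in the direction of transcription (kb, horizontal axis) and deposited signal (vertical log axis); red marks summits in the optimal list, grey the other pooled summits, and the grey band the gene span. The tall red peaks of gbb and Med (signals 1178 and 929.5) stand outside the gene span, and that of Mad (463.3) inside it.

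tkv encodes the type I receptor that carries most Dpp signalling. It is the longest member (FBgn0003716; 2L, 5219000 to 5271384, minus strand, 4 TSSs), and the cytochrome P450 gene Cyp4ac1 and others of its family lie inside it. Both of its optimal peaks were intronic and among the weaker ones of the list. The first (2L, 5256446 to 5256869) had signal 108.5 and rank 2969, with rank 2605 in replicate 2 and 3336 in replicate 3. The second (2L, 5224658 to 5225081) had signal 76.5 and rank 4683, close to the end of the list. It was at rank 5411 in replicate 2 and 4607 in replicate 3, so that only replicate 3 had it among its 4720 strongest. Their distances to the closest tkv TSS were 12519 and 12492 bp, and the closest protein-coding starts were those of Cyp4ac1 (7343 bp) and TpnC25D (6616 bp), a troponin C gene. tkv also held the most relaxed peaks, 21 in the pooled list, and 10 of the 19 that were not optimal recurred in both replicates. Among these was a summit 106 bp upstream of one tkv TSS (signal 61.8, rank 6211). It ranked 4740 in replicate 2. Its match in replicate 3, at rank 7362, lay 195 bp away and only 9 bp from another relaxed pooled peak.

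sax encodes the second type I receptor, which responds mainly to Gbb and Scw, and put the type II receptor shared by the BMP and activin branches. The window of sax (FBgn0003317; 2R, 7806484 to 7810067, plus strand) held 1 optimal peak (2R, 7812166 to 7812589), 2311 bp beyond the 3′ end of the gene and 126 bp upstream of puml. Its signal was 193.6 and its rank 1221, with rank 2010 in replicate 2 and 956 in replicate 3. It was thus nearer the top in replicate 3. At the sax start itself a relaxed peak lay 27 bp upstream of the TSS, with signal 71.99 and rank 5074. It was present in both replicates, at rank 4934 and 5387, and by its pooled rank it was just short of the optimal list. Over all genes, 47.0% had a relaxed pooled summit within 500 bp of a TSS, and 3 of the 8 members did: sax, tkv and dpp.

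The peak at put (FBgn0003169; 3R, 14619030 to 14625703, minus strand) was in an intron, 1474 bp downstream of its only annotated TSS (3R, 14624017 to 14624440). It had signal 90.5 and rank 3794, and ranked 4787 in replicate 2 and 3466 in replicate 3. It was thus outside the 4720 strongest of replicate 2, and put had no summit in its window among those. The window was also the sparsest in relaxed peaks, with 3 in the pooled list.

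Mad encodes the receptor-activated Smad. It carried the strongest peak within any member gene (FBgn0011648; 2L, 3146056 to 3159643, minus strand). The peak (2L, 3153274 to 3153541, summit 3153416) had signal 463.3 and rank 191. It ranked 193 in replicate 2 and 189 in replicate 3, nearly the same place in each. It lay in an intron, 663 bp upstream of the internal TSS of Mad and 6227 bp downstream of the distal one. Near the distal start a relaxed peak, 731 bp downstream in an intron, had signal 72.9 and rank 4986, but it ranked 4034 in replicate 3 and 8797 in replicate 2. Of the 5 relaxed pooled peaks of Mad that were not optimal, 1 recurred in both replicates.

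Med encodes the co-Smad that joins phosphorylated Mad. The window of Med (FBgn0288966; 3R, 31611046 to 31615375, plus strand) held 1 optimal peak (3R, 31616010 to 31616376), with signal 929.5 and rank 47. It ranked 44 in replicate 2 and 49 in replicate 3. Its summit was 801 bp beyond the 3′ end of Med and 5130 bp from the Med TSS, but 16 bp upstream of Mnat9, an acetyltransferase gene on the opposite strand that overlaps the end of Med. Inside Med only a relaxed peak was seen, in a coding exon, with signal 39.03 and rank 11419. Of the 13 relaxed pooled peaks in the window that were not optimal, 5 recurred in both replicates.

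brk encodes the repressor that opposes Dpp at its target genes, and its upstream region is known to hold silencer elements bound by Mad, Med and Shn. The gene (FBgn0024250; X, 7307939 to 7311132, plus strand) is short, and no other protein-coding gene starts in its window. It lies within the long annotated units CG1677 and lncRNA:CR44357, so its peaks are annotated as intronic. Of its 5 optimal peaks, 4 lay upstream, within 7630 bp of each other. The nearest (X, 7306901 to 7307324), 826 bp upstream of the TSS, was the strongest, with signal 165.9 and rank 1571. It ranked 2772 in replicate 2 and 1151 in replicate 3. The next, 1901 bp upstream (X, 7305826 to 7306249), had signal 91.0 and rank 3768, and ranked 4793 and 3427 in replicates 2 and 3. The 2 far upstream peaks formed a pair 1130 bp apart. That at 7326 bp (X, 7300401 to 7300824) had signal 101.9 and rank 3238, and that at 8456 bp (X, 7299271 to 7299694) had 84.3 and rank 4118. The nearest protein-coding TSS was that of brk for the former and that of unc-119 (8185 bp) for the latter. The pair ranked 2084 and 4081 in replicate 2, and 4372 and 4436 in replicate 3. For the one at 7326 bp, the matched replicate 2 summit lay 122 bp away, the largest such offset among the 16 peaks. The last peak, downstream of brk in an intron of the autophagy gene Atg5 (X, 7319104 to 7319527), had rank 2907, and ranked 3243 in replicate 2 and 2948 in replicate 3. None of the 5 was among the 1000 strongest of the optimal list. The number depended on the settings: it was 2 with 5 kb on each side of the gene, 11 with 20 kb, and 1 among the 2360 strongest optimal peaks. Relaxed peaks were also dense at brk, with 15 in the pooled list, or 6.47 per 10 kb, the highest among the members. Of the 10 that were not optimal, 6 recurred in both replicates. Those 620 and 1685 bp upstream did so, in 1 replicate each, only through a summit that also matched an optimal peak. The strongest of the 10, 6026 bp upstream, had signal 74.4 and rank 4845.

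Both replicates contained all 16 optimal peaks within 200 bp, as did 99.6% of the optimal list as a whole. Each of the 16 had the same rank in the pooled list, which was drawn from both libraries. Their recurrence is thus no independent support. Among the 4720 strongest peaks of each replicate, 13 of 16 were found in replicate 2 and 16 of 16 in replicate 3. The 3 below that rank in replicate 2 were the 3′ peak of tkv, the peak of put and the brk peak 1901 bp upstream. For comparison, 79.1% of all optimal peaks were among the 4720 strongest of both replicates. Of the 68 relaxed pooled peaks in the member windows that were not optimal, 33 (48.5%) recurred in both replicates, against 49.1% of such peaks in the genome.

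**Figure D4:**
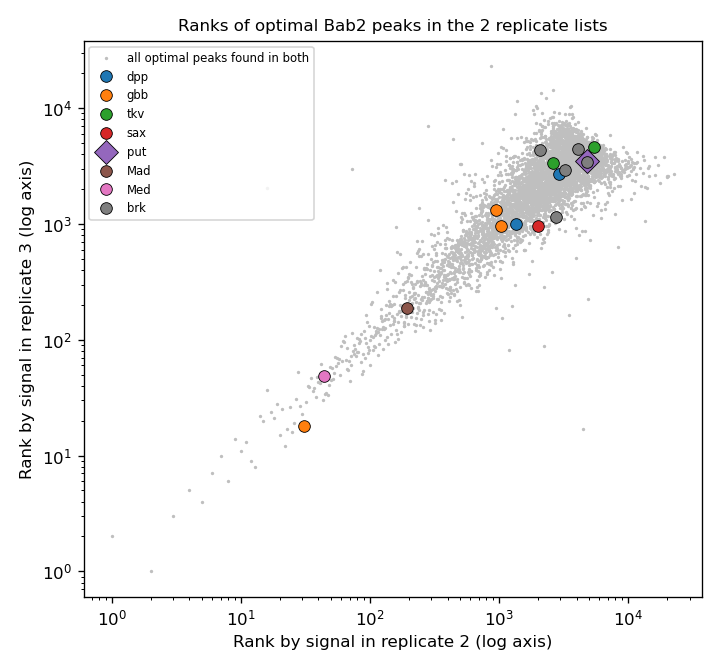
Rank by signal in replicate 2 (horizontal log axis) and replicate 3 (vertical log axis) of the optimal peaks found in both replicates (grey) and of the 16 peaks in the member windows (coloured; put as a diamond). The peaks of gbb, Med and Mad lie at ranks 31 and 18, 44 and 49, and 193 and 189, while the peak of put lies at 4787 and 3466, close to a peak of brk at 4793 and 3427.

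The window of 10 kb set which peaks were counted. The farthest one inside belonged to brk, 8456 bp outside the span, and the closest one outside also to brk, at 12702 bp (signal 81.4, 64 bp upstream of Atg5). For the other members the nearest optimal summit beyond the window lay from 15252 bp (sax) to 39971 bp (Mad) outside the span. At dpp it was 33034 bp away, at the promoter of oaf, so that no optimal summit fell between the 3′ end of dpp and that point, a stretch known to hold enhancers for the imaginal discs.

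A list of 33 other genes of the pathway was examined in the same way, chosen by their known roles and with earlier results of these data known. Of these, 25 (75.8%) had an optimal summit in their window, 11 had one within the gene span, and 4 had one within 500 bp of a TSS, beside 63.1%, 12.2% and 20.1% of all genes. Many of these genes have long windows: 21 of the 33 fell in the group with the longest windows, where 17 had an optimal summit in the window and 10 in the span, beside 73.5% and 38.0% of all genes of that group. The median was 2 summits per window, against 1 over all genes. Of 15 genes known as transcriptional targets, 14 had an optimal summit in the window, and of 18 ligand, receptor and regulator genes 11 did. Within the gene span the order was reversed, with 3 of the 15 and 8 of the 18. Window lengths were not matched between these sets, and a difference between them was not tested. The 8 without an optimal summit in their window were scw, mav, tsg, tld, tok, cv-d, Smurf and salr. They include the early embryonic ligand gene scw and the extracellular factors Tsg and Tld, which shape the dorsal BMP gradient in the embryo. The windows of tsg, scw and tld were 20.9, 21.6 and 23.8 kb long. In the length groups that hold them, 46.3%, 60.2% and 70.3% of all genes had a summit. Other genes of the gradient went the other way, as sog had 5 optimal summits and dpp 2.

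The 4 genes with a start-site summit were dlp, which encodes a glypican, magu, which encodes a secreted feedback regulator of Dpp, peb and ush. The magu summit lay 265 bp upstream of its TSS with signal 401.6, and that of peb, a target gene needed in the amnioserosa, 424 bp upstream with signal 194.8. Of the 33, 5 genes had 5 or more optimal summits, ush (17), dlp and magu (6 each), and sog and cv-2 (5 each), beside 4.13% of all genes. All 5 belong to the group with the longest windows, in which 10.5% of all genes had as many. These are known regulators of the Dpp gradient, apart from ush, a GATA cofactor and early Dpp target. Their windows differ in length, from 31.2 kb for magu to 84.3 kb for ush. The strongest peak in the ush window (signal 2524, rank 1) was nearest to cbt.

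In several of the other windows the strongest peak again lay at a neighbouring gene. For bam, a Dpp-repressed germline gene, it was 11 bp upstream of RpS27 (signal 540.3). For Ance, a target in the dorsal ectoderm, it was 59 bp upstream of Smg5 (428.6), and for tup 109 bp upstream of CG10602 (372.1). For cv the strongest signal was 529.3, for Dad, the inhibitory Smad gene, 369.2, for dlp 355.6 and for cv-2 334.9, each more than 1000 bp from the closest protein-coding TSS. Doc2 and Doc3, T-box genes that neighbour each other, shared 1 strongest peak (signal 325.4, 2130 bp upstream of CG5194). A precipitation from flies without the tag was not analysed here, and the part of general promoter signal in the peaks at neighbouring genes was not tested.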

How the data were processed

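ChIP-seq peak lists of Bab2-eGFP from 1 group of 2 libraries (biological replicates 2 and 3) were analysed. According to the README texts deposited by the authors, these are narrowPeak lists on dm6: relaxed lists of peaks and background per replicate and from both alignments, and an optimal list derived from them by the irreproducible discovery rate procedure. Aligner, peak caller, scaling and read depth were not given in the sources used. The authors' deposited signal served only to describe and rank peaks within a list. Since 14 of the 16 peaks shared the largest −log10 (q-value) that the authors deposited, 3.9, it was not a basis for ranking. The summit is the peak start plus the deposited offset, 1-based. Lists on dm3 were not used.

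Genes and TSSs came from Ensembl release 115 on the same assembly, whose arm lengths hold all peaks. Counts were set beside those over all protein-coding genes, without a chance test. Summits within 200 bp were matched between lists, taking the strongest, so close pooled peaks can share a replicate peak. Motifs were searched within 50 bp of the summit. The named genes were all members, every gene with the protein-coding TSS nearest to an optimal summit, and, of the 33 other pathway genes, those with a start-site summit and up to 10 with the strongest summit. Other names were chosen after their values were seen. Members and lists were chosen with earlier results of these data known. Alternatives were other windows, TSS and matching distances, a stricter list and each replicate alone. The counting was tested on simulated data. Python 3.11.15, numpy 2.4.6, pandas 2.3.3 and matplotlib 3.10.9 were used.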

Additional observations from a re-analysis of the deposited data

How the results depend on the processing

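All 8 genes kept an optimal summit in their window with 5 kb or 20 kb in place of 10 kb, beside 49.2% and 78.3% of all genes. They also did with the strongest pooled peaks in place of the optimal list. That exchange could hardly change the result, because each of the 16 peaks had the same rank in the pooled list as in the optimal list. With the gene span alone, 4 of 8 genes kept an optimal summit, with 5 summits in place of 16. Of the 33 other pathway genes, 11 had one in the span, in place of 25 in the window. The number of summits became 25 with 20 kb and 8 with the 2360 strongest optimal peaks, where 6 of 8 genes kept one, beside 45.6% of all genes. The count at brk became 2 with 5 kb, 11 with 20 kb and 1 with the 2360 strongest peaks, in place of 5, and that at gbb 1, 4 and 3, in place of 3. Leaving out each replicate gave 15 to 18 summits and 7 to 8 genes. Without replicate 2, Mad had 2 summits in place of 1, and dpp 3 in place of 2. Without replicate 3, put was lost, tkv had 3 in place of 2, and brk 4 in place of 5. Of the 33 other genes, 23 to 25 had a summit when each replicate was left out. Start-site summits were 0 of 8 with 250 bp and 2 of 8 (Mad and brk) with 1000 bp, beside 16% and 23.4% of all genes. For the 33 other genes they were 2 with 250 bp and 8 with 1000 bp, in place of 4. Leaving out each replicate gave 0 of 8 and 4 of 33. Relaxed pooled summits found in both replicates were 49 of 84, with 41 and 53 at matching distances of 100 and 500 bp. With the TSSs of all annotated genes, 6 of 16 summits were nearest to a member in place of 7. No paired analysis was possible because there is 1 group. Depth is unknown, so a missing peak may be one that these lists could not resolve.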
